A study of Mus musculus with 24 samples.

Results

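After 5 h with an antibody against the Notch ligand Dll4, no single gene of Kit- CD41+ CD45- embryonic cells differed from the IgG control past an adjusted p of 0.05. Among gene groups, 27 of 28 erythroid genes had positive and 30 of 32 endothelial genes negative log2 fold changes, anti-Dll4 over IgG. In a fit to the 8 libraries of these cells alone, it was 27 of 27 and 20 of 21, with medians of 0.70 and -0.30. The comparison takes in every library whose title gives CD31+, Kit-, CD41+ and CD45-, which is 8 of the 24 libraries of the series, 4 treated with anti-Dll4 and 4 with control IgG. All came from C57BL/6J mouse embryos at E10.5, and no group carries a mutation or a transgene. Per the labels' protocols, the antibody, anti-Dll4 or anti-human IgG, was injected into the embryonic heart, and the embryos were then kept for 5 h at 37 °C under 5% CO2. The culture medium held 5 µg/ml of the antibody, 10 ng/ml of the cytokine IL-3 and 10 µM hydrocortisone, so all libraries, controls included, come from cells that had both. Cells were released with collagenase and sorted, and cDNA made from polyA RNA was amplified by PCR before sequencing. How many embryos stand behind a library is not given in the sources used here, so the tests measure the spread between libraries.

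CD41 is the integrin subunit encoded by Itga2b. It is carried by megakaryocytes and platelets, and in the embryo also by the earliest blood progenitors. Dll4 is a membrane ligand on arterial endothelium. When it binds a Notch receptor on a neighbouring cell, the receptor is cut, and its intracellular part joins Rbpj to switch on genes such as Hes1, a transcriptional repressor. In the aorta of the embryo, Notch signals take part in both the arterial fate and the formation of blood cells from hemogenic endothelium.

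The cells carried the transcripts that define a platelet lineage. Pf4, the platelet chemokine PF4, had 16184, 12873, 11091 and 13434 CPM (reads of a gene relative to the total of its library, after TMM scaling) in the 4 anti-Dll4 libraries, against 11275, 12336, 14306 and 16010.3 CPM in the 4 IgG libraries. The ranges overlapped almost wholly. Over the series, Pf4 averaged 13395 ± 2111 CPM in Kit- CD41+ CD45- cells under anti-Dll4, against 478 ± 421 in Kit+ CD45- and 211 ± 49.2 in Kit+ CD45+ cells under the same antibody (SD, n = 4 each). Itga2b had 361, 459.6, 583 and 305 CPM under anti-Dll4, against 755, 551, 488 and 366 CPM under IgG. Its highest value came from IgG replicate 1 and its lowest from anti-Dll4 replicate 4, and the groups overlapped. Ptprc, which encodes the CD45 used to exclude cells, had 8 counts in anti-Dll4 replicate 4 and none in the other 7 libraries. Kit, the other marker the sort excluded, had 1.91, 0.907, 1.78 and 2.89 CPM under anti-Dll4, against 2.14, 5.22, 4.91 and 3.11 CPM under IgG.

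Library totals were 9723206 to 11379830 counts, with 19000 to 19972 genes detected in each. Pearson's r across the 15618 genes tested was 0.957 to 0.968 between anti-Dll4 libraries, 0.957 to 0.966 between IgG libraries and 0.954 to 0.970 between the antibodies, so a library resembled those of the other antibody about as closely as its own group. Anti-Dll4 replicate 1 stood apart in its sex-linked transcripts. It had 1 Xist count and 2590 counts of Y-linked genes, while the other 7 libraries had 1455 to 2090 Xist counts and none from Y-linked genes. The globin, erythroid, platelet and endothelial lists are given below with and without that library, and the other lists where leaving it out turned the sign of their median or moved it by more than 1.5 times.

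By edgeR's quasi-likelihood test with Benjamini-Hochberg adjustment, 0 of 15618 genes passed an adjusted p of 0.05 (0%), and 2 passed 0.1. At an unadjusted p under 0.05 there were 435 genes, which is 2.79% of those tested, 179 higher and 256 lower under anti-Dll4. Limma-voom called 0 genes and DESeq2, fitted to the 8 libraries, called 11. The 5th and 95th percentiles of the log2 fold change over all genes were -0.93 and 0.75, and the median was -0.01. Size depended on level. Of 5740 genes with a mean of 5 to 50 CPM, 35 differed by more than 2-fold, 27 higher and 8 lower, and of 3412 genes at 50 to 500 CPM, 3 did, all higher. None of the 276 genes over 500 CPM differed by that much, and the median SE of their log2 fold changes was 0.16. At lower levels more were lower than higher. At 1 to 5 CPM, 276 of 3675 genes differed by over 2-fold, 103 higher and 173 lower, and under 1 CPM 887 of 2515 did, 358 higher and 529 lower, where the median SE was 1.00.

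**Figure D1:**
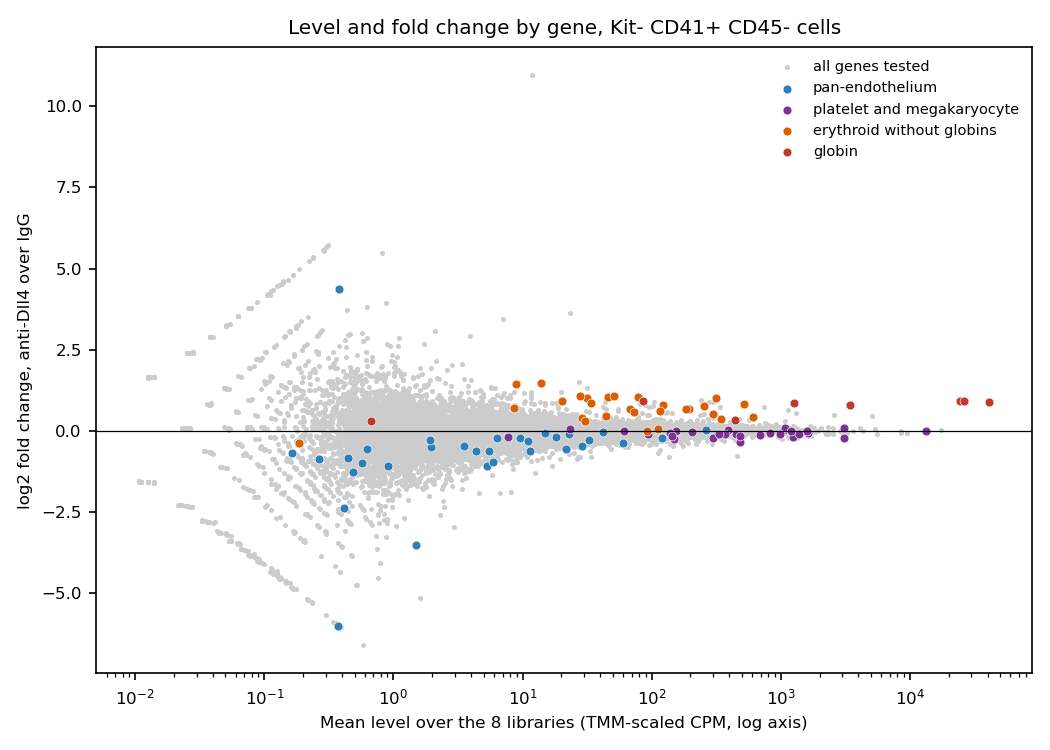
Log2 fold change, anti-Dll4 over IgG, against the mean level over the 8 libraries (TMM-scaled CPM, log axis), 1 dot per gene, with 4 gene lists in colour. Platelet genes lie along 0 at all levels, globin and other erythroid genes lie above it, most pan-endothelium genes below, and the isolated grey dot at the top is the Y-linked gene Ddx3y, which only anti-Dll4 replicate 1 contained.

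Transcripts of the red cell lineage had the highest medians of the 30 lists. Globin genes, mostly the embryonic chains of primitive red cells, took 8.33%, 13.7%, 10.7% and 14.1% of all counts in the anti-Dll4 libraries, against 4.17%, 4.40%, 8.15% and 9.79% in the IgG libraries. Only anti-Dll4 replicate 1 fell inside the IgG range, below IgG replicate 4. Leaving that library out, the difference was 6.23 percentage points, against 5.10 with it. In bulk RNA, more cells of a type and more RNA of that type per cell cannot be told apart, and the share does not say whether red cells entered the sort or sorted cells held these transcripts.

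Among the globins, Hbb-y, an embryonic beta chain, had 37371, 63918, 47056 and 66772 CPM under anti-Dll4, against 18054, 18266, 34927 and 44823 CPM under IgG. Its log2 fold change was 0.89 (SE 0.47, adjusted p = 1). All 8 globins tested had positive values, from 0.31 to 0.94 with a median of 0.88, against a positive value for 47.5% of all genes. Without anti-Dll4 replicate 1 the median was 1.01, with 7 positive and 1 negative. Hba-a1 and Hba-a2, and Hbb-bs and Hbb-bt, are near-identical pairs whose reads the counting could split, so their separate values are uncertain.

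Beyond the globins, 27 of 28 erythroid genes tested had a positive log2 fold change and 1, Tspo2, a negative one. Their median was 0.69, where the median of all genes was -0.01. None passed the threshold, and for 6 of the 28 all 4 anti-Dll4 libraries lay above all 4 IgG libraries, which 1.07% of all genes did. At an unadjusted p under 0.05, 15 were higher and 0 lower, where 1.15% of all genes were higher. Without anti-Dll4 replicate 1 the median was 0.88, and with the globin level as a covariate in a fit to the 8 libraries it was 0.22, with 26 of 27 positive. The covariate is itself a measure of red cell RNA, and its part in these results was not tested.

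The membrane and cytoskeleton genes of the red cell had the widest differences. Slc4a1, the band 3 anion exchanger (chr11:102348824-102366203, mm10), had 12.8, 29.2, 17.6 and 21.6 CPM under anti-Dll4, against 6.76, 4.78, 11.1 and 6.77 CPM under IgG. The groups did not overlap, and the lowest anti-Dll4 library was again replicate 1. Its log2 fold change was 1.47 (SE 0.36, adjusted p = 0.806). Add2, the beta subunit of adducin that joins spectrin to actin, had 6.33, 15.5, 14.2 and 16.3 CPM under anti-Dll4, against 1.97, 5.49, 6.31 and 5.55 CPM under IgG. Anti-Dll4 replicate 1 lay just above the highest IgG library. The blood group antigens Rhd and Kel had log2 fold changes of 1.04 (SE 0.37) and 1.07 (SE 0.47). Rhd stood at 37.1, 94.5, 58.3 and 58.9 CPM under anti-Dll4, against 23.95, 26.2, 34.8 and 36.1 CPM under IgG, with no overlap.

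Heme synthesis and iron genes differed in the same direction and by less. Alas2, which starts heme synthesis in erythroid cells, had 375, 799, 749 and 755 CPM under anti-Dll4, against 311, 252, 439 and 488 CPM under IgG. The 3 higher anti-Dll4 libraries lay above every IgG library, and replicate 1 did not. Slc25a37, the mitochondrial iron importer mitoferrin 1, had 49.0, 90.6, 59.7 and 77.7 CPM under anti-Dll4, against 27.1, 20.1, 34.5 and 49.8 CPM under IgG. Replicate 1 of anti-Dll4 fell just under the highest IgG library. The enzymes Alad, Cpox and Uros, which act in the middle of the pathway, had log2 fold changes of 0.76 (SE 0.24), 0.81 (SE 0.29) and 0.61 (SE 0.27). Cpox and Uros did not overlap between the antibodies, at 112 to 197 and 112 to 162 CPM under anti-Dll4, against 70.7 to 106 and 83.2 to 106 CPM under IgG. Tfrc, the transferrin receptor, averaged 226 ± 51.7 CPM under anti-Dll4 and 143 ± 30.1 under IgG (SD, n = 4 each).

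**Figure D2:**
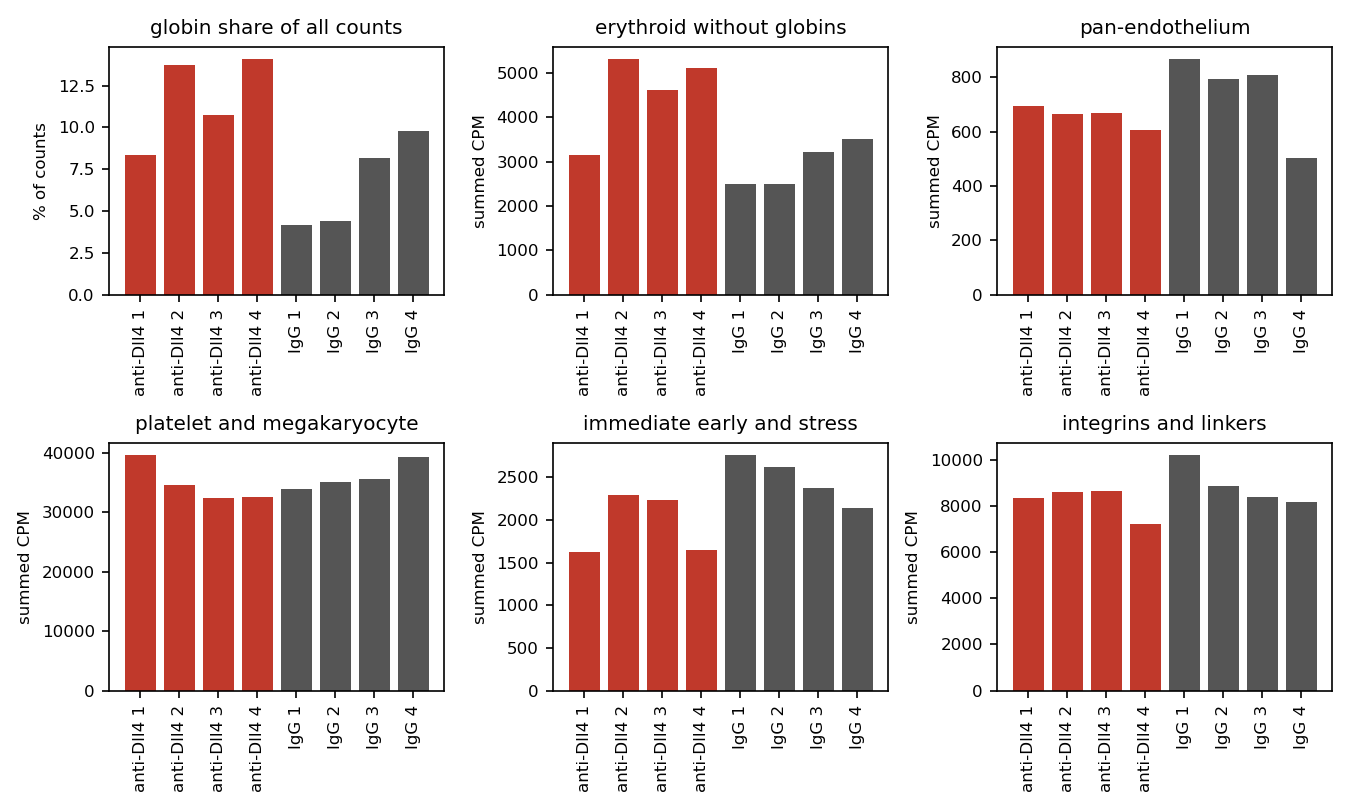
Globin share of all counts (%) and summed TMM-scaled CPM of 5 gene lists in each of the 8 libraries (bars start at 0; red, anti-Dll4; grey, IgG; replicates 1 to 4). Globin and erythroid bars of anti-Dll4 replicates 2 to 4 stand above every IgG bar, and the platelet bars show no separation of the antibodies.

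The promoters of 3 erythroid members with positive log2 fold changes are shown, picked from those whose promoters hold AGATAA. These are the letters bound by GATA factors such as the erythroid regulator Gata1. Each run is the 250 bases before the RefSeq start on GRCm38.p6, 5′ to 3′ on the strand of the gene, with the match in capitals (TTATCT is the same motif read on the opposite strand).
Alas2: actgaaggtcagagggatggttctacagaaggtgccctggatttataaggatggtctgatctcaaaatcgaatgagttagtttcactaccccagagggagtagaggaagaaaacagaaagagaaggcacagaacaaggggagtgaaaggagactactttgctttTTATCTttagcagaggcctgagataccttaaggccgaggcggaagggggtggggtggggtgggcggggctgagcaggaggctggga
Kel: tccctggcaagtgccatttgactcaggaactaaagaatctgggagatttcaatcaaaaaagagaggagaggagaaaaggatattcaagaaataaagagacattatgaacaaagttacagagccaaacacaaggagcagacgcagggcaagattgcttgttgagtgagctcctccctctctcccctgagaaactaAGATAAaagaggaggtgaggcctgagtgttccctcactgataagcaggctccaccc
Rhd: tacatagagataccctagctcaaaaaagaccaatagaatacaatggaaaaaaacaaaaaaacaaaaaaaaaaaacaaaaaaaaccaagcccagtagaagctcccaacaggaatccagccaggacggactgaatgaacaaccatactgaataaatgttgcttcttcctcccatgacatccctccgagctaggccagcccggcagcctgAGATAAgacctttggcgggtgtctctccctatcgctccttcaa
The match begins 86 bases before the start in Alas2 (chrX:150547167-150547416, plus strand), 56 in Kel (chr6:41704326-41704575, minus strand) and 43 in Rhd (chr4:134864286-134864535, plus strand). RefSeq promoters could be matched for 21 of the 28 erythroid genes. Searched on both strands from 250 bases before to 50 after the start, AGATAA occurred in 8 of their 26 promoters and in 11.2% of all 32851 promoters. The 8 genes were Alas2, Cpox, Epb42, Epor, Icam4, Kel, Rhd and Trim10, with log2 fold changes from 0.003 (Epor) to 1.07 (Kel). CCACACCC, a form of the CACC box bound by Klf1, occurred in 0 of the 26 and in 3.56% of all promoters. These are letter matches, and no binding was measured.

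The platelet and megakaryocyte programme differed little in level. Of 30 genes tested, 25 had a negative log2 fold change and 5 a positive one, within -0.34 to 0.10, and the median was -0.08. Without anti-Dll4 replicate 1 the median was -0.11. With the globin level as a covariate its sign turned, to a median of 0.08 with 19 positive and 11 negative values, and with the replicate block added to that covariate it was -0.15. In the fit without covariate, no member passed even an unadjusted p of 0.05. F2rl2, a thrombin-binding receptor of mouse platelets, averaged 3193 ± 412 CPM under anti-Dll4 and 2985 ± 245 under IgG (SD, n = 4 each), and Gp6, the collagen receptor, averaged 155 ± 18.1 CPM under anti-Dll4 and 157 ± 11.3 under IgG. Their log2 fold changes of 0.10 and -0.01 had 95% intervals from -0.58 to 0.77 and from -0.86 to 0.83, which include a difference as large as the median of the erythroid list. Ppbp, another platelet chemokine, had 3391, 3042, 3015 and 2073 CPM under anti-Dll4, against 1898, 3868, 2914 and 4642 CPM under IgG. Both extremes were IgG libraries. Integrins and their linkers to actin, which platelets use to adhere, had 4 positive and 19 negative values with a median of -0.16, and Ilk, a linker kinase, differed by -0.06 (SE 0.14).

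Endothelial transcripts were mostly lower under anti-Dll4, and many of them were low in these cells. Not all were low. Egfl7, with a log2 fold change of 0.03, had 2109 to 3078 counts under anti-Dll4 and 1571 to 4231 under IgG. In the pan-endothelium list 30 of 32 genes had a negative log2 fold change and 2 a positive one, with a median of -0.52, where 51.8% of all genes had a negative one. None passed the threshold. At an unadjusted p under 0.05, 4 were lower, where 1.64% of all genes were, and 1, Flt4, was higher. Without anti-Dll4 replicate 1 the median was -0.49, and without IgG replicate 2 it was -0.21. The filter ran over all 6 groups, and that of a fit to the 8 libraries alone kept 21 of the 32 genes. Of these, 1 had a positive and 20 a negative value, with a median of -0.30. Over the same 21 genes the median was -0.15 with the globin level as a covariate and -0.27 with the replicate block. With the covariate and the replicate block together the sign turned, with 13 of the 21 positive, 8 negative and a median of 0.08. The summed level was 604 to 692 CPM in the anti-Dll4 libraries, against 504 to 868 CPM in the IgG libraries, where IgG replicate 4 was the lowest of all 8.

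The members at the lowest end were close to the limit of counting. Sox17, a transcription factor of arterial and hemogenic endothelium, had 0.301, 0.101, 0 and 0.556 CPM under anti-Dll4, against 0, 7.70, 3.01 and 0.333 CPM under IgG. Replicates 2 and 3 of IgG held nearly all of it. Eng, the TGF-beta co-receptor endoglin, had 3.01, 6.55, 4.18 and 2.22 CPM under anti-Dll4, against 12.5, 8.06, 7.71 and 2.89 CPM under IgG, and IgG replicate 4 fell within the anti-Dll4 range. Cdh5, the cadherin of endothelial junctions, had 5, 1, 0 and 6 counts under anti-Dll4, against 0, 11, 12 and 1 counts under IgG. Pecam1, which encodes the CD31 used in the sort, had 48.2, 59.1, 57.2 and 44.8 CPM under anti-Dll4, against 75.8, 71.1, 70.1 and 51.9 CPM under IgG. Its log2 fold change of -0.36 (SE 0.28) did not pass the test. Arterial genes had 15 negative and 4 positive values with a median of -0.48, among them Nrp1, a semaphorin and Vegfa co-receptor, at -1.14 (SE 0.39). Venous genes had 6 negative and 4 positive values with a median of -0.25. Without anti-Dll4 replicate 1 the arterial median was -0.33 and the venous one -0.06. In the fit to the 8 libraries alone, which tested 11 arterial and 7 venous genes, the medians were -0.25 and -0.42.

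**Figure D3:**
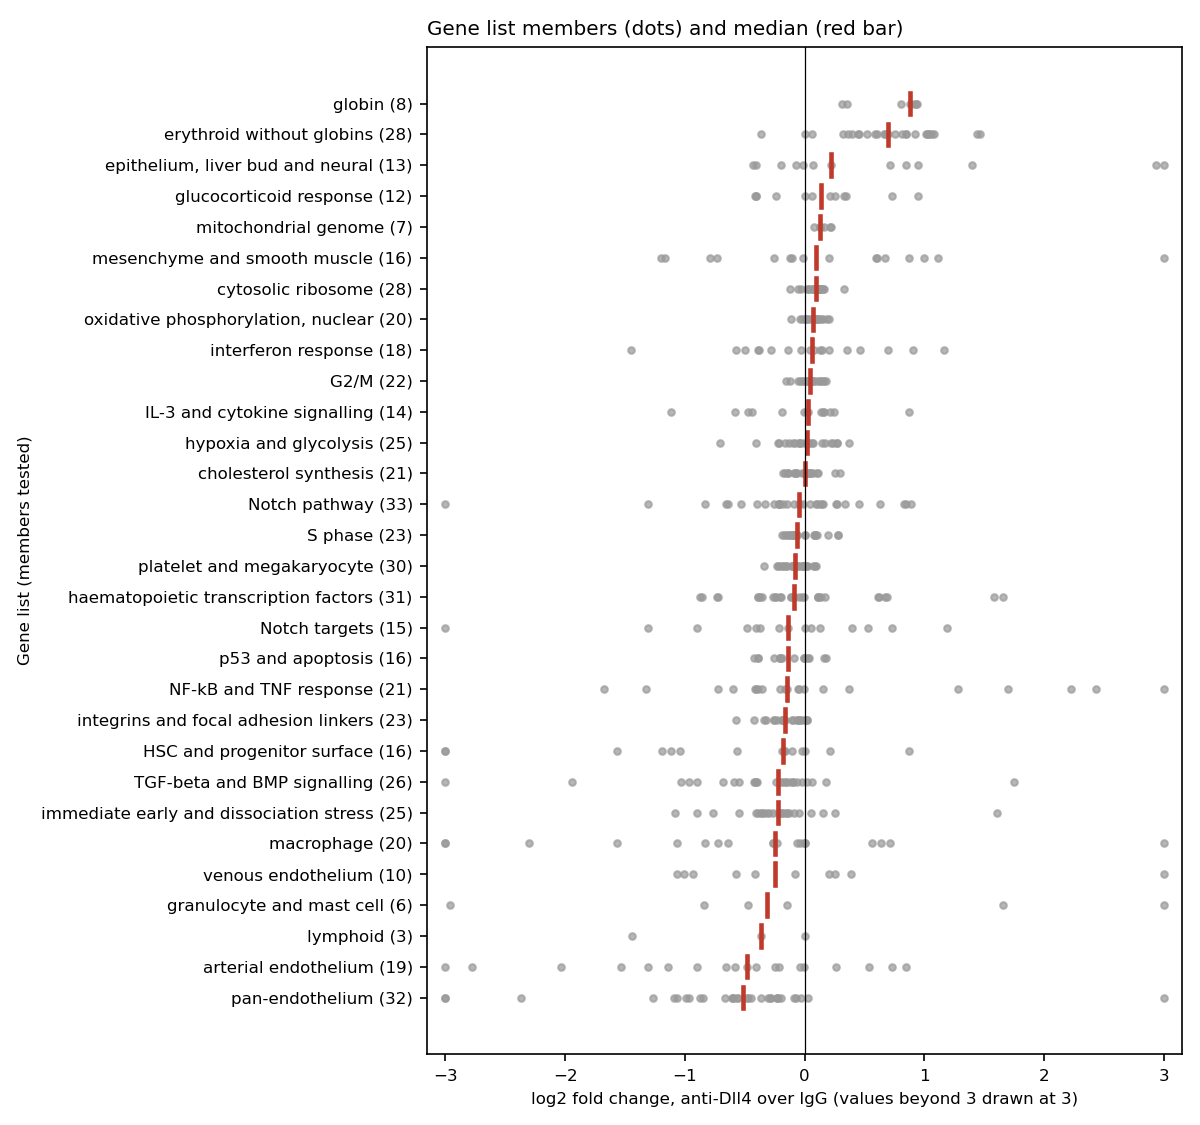
Log2 fold change, anti-Dll4 over IgG, of the tested members of 30 gene lists (dots; values beyond 3 are drawn at 3) with the list's median (red bar), ordered by the median. Globin and erythroid lists lie at the top with medians of 0.88 and 0.69, pan-endothelium at the bottom with -0.52, and most lists have medians close to 0.

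Components of the Notch pathway were not shifted as a group. Of 33 tested, 14 had positive and 19 negative values, with a median of -0.05. Dll4 itself had 0, 0, 2 and 1 counts under anti-Dll4, against 0, 8, 1 and 0 counts under IgG, at or near the floor of 3 counts per library in 7 of the 8 libraries. Notch1, the receptor, averaged 2.02 ± 0.525 CPM under anti-Dll4 and 1.69 ± 0.759 under IgG (SD, n = 4 each). Adam10, the protease that makes the first cut in a bound receptor, had 122, 107, 73.9 and 106 CPM under anti-Dll4, against 91.7, 74.7, 86.3 and 85.6 CPM under IgG. Its lowest value was an anti-Dll4 library, and its log2 fold change was 0.27 (SE 0.13).

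The Notch target list had 7 positive and 8 negative values with a median of -0.14, and Hes1 was the target with the smallest p. Hes1 (chr16:30064384-30067796, mm10) had 6.73, 6.85, 9.40 and 5.89 CPM under anti-Dll4, against 6.16, 21.7, 29.6 and 14.2 CPM under IgG. All 4 anti-Dll4 libraries and IgG replicate 1 were low, and the other 3 IgG libraries were higher. Its log2 fold change was -1.31 (SE 0.32, adjusted p = 0.806), and its 20 alternatives ran from -1.60, without IgG replicate 1, to -0.96, without IgG replicate 3. The adjusted p passed in 1 of the 20, at 0.0303 without IgG replicate 1, the only IgG library that overlapped the anti-Dll4 range, and was 1 at its highest. Dtx1, a ubiquitin ligase gene switched on by Notch, had 0, 0, 0 and 0.111 CPM under anti-Dll4, against 1.20, 0.620, 0 and 0.888 CPM under IgG, near the floor. Gata2, a target and a regulator of blood stem cells, had 28.1, 30.7, 34.8 and 21.4 CPM under anti-Dll4, against 42.2, 38.3, 41.0 and 27.6 CPM under IgG (log2 fold change -0.37, SE 0.29). The groups overlapped through IgG replicate 4. Hey1, Hey2 and Heyl, also targets, had log2 fold changes of -0.48 (SE 0.47), 0.72 (SE 1.20) and 1.18 (SE 1.43). Hey2 had 4, 5, 8 and 11 counts under anti-Dll4, against 5, 7, 7 and 0 counts under IgG. Heyl had 6, 33, 20 and 0 counts under anti-Dll4, against 0, 28, 0 and 1 counts under IgG.

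Single genes were taken by smallest p in each direction, at a level of 5 CPM or more in whichever group was higher. Tspan33, a tetraspanin of erythroid cells (chr6:29694222-29718559, mm10), came first among the higher genes, with 25.1, 60.9, 43.2 and 49.8 CPM under anti-Dll4, against 12.6, 18.2, 20.03 and 20.6 CPM under IgG. The groups did not overlap, and its log2 fold change was 1.33 (SE 0.32, adjusted p = 0.806). Slc4a1, Slc25a37 and Alad, given above, were also among the 10. The other 6 had log2 fold changes from 0.99 to 1.59 and an adjusted p of 1. They were Pkp2 (a desmosomal plakophilin), Lmx1a (a homeobox factor of neural development), Nrtn (the growth factor neurturin), Tnfaip8l1, Olfm1 (a secreted olfactomedin) and Hsd3b6 (a steroid dehydrogenase). Hsd3b6 had 79.4, 136, 117 and 98.7 CPM under anti-Dll4, against 43.1, 39.7, 38.3 and 96.2 CPM under IgG, and IgG replicate 4 lay inside the anti-Dll4 range.

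Among the 10 lower genes, Adgrl2, an adhesion receptor of the latrophilin family, had 3.62, 2.62, 3.03 and 2.34 CPM under anti-Dll4, against 4.45, 7.08, 7.01 and 6.21 CPM under IgG (log2 fold change -1.09, SE 0.25, adjusted p = 0.806). The groups did not overlap. Ino80d, a subunit of the INO80 chromatin remodeller, was the tightest within groups, at 10.9, 11.4, 11.3 and 12.1 CPM under anti-Dll4, against 17.0, 14.3, 18.7 and 17.98 CPM under IgG (log2 fold change -0.57, SE 0.18, adjusted p = 1). Every anti-Dll4 value lay below every IgG value. The others were Hes1, Ptprk (a receptor tyrosine phosphatase), Stambpl1 (a deubiquitinase), Nfib and Ebf1 (transcription factors), Tbc1d12, Tmem94 and Yes1 (a Src family kinase), with log2 fold changes from -1.44 to -0.88. Ebf1 had 2.82 to 11.2 CPM under IgG, where replicate 3 was the highest and the other 3 were at most 3.81.

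**Figure D4:**
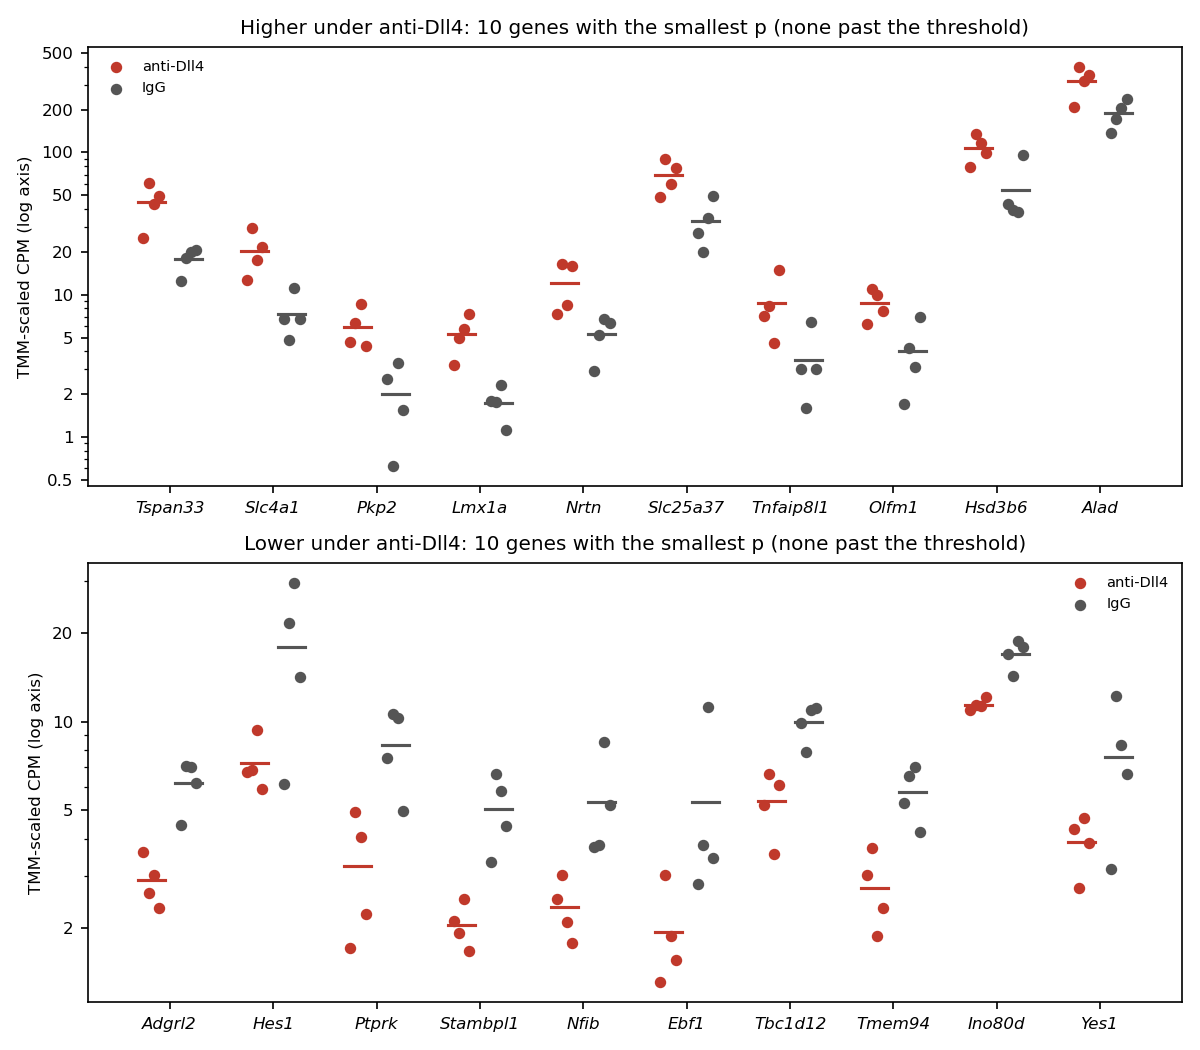
TMM-scaled CPM (log axis) of the 10 genes with the smallest p in each direction at 5 CPM or more in whichever group was higher, 1 dot per library and a bar at the mean of 4 (red, anti-Dll4; grey, IgG). Tspan33, Slc4a1, Adgrl2 and Ino80d do not overlap between the antibodies, while Hes1 overlaps through IgG replicate 1.

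The 3 smallest p of all belonged to genes below that level, named after their values were seen. Enpp2, which makes the lipid signal lysophosphatidic acid, had 3, 0, 0 and 0 counts under anti-Dll4, against 25, 41, 56 and 11 counts under IgG (log2 fold change -5.14, SE 0.87, adjusted p = 0.0795). Flt4, a receptor for Vegfc found on venous and lymphatic endothelium, had 9, 7, 2 and 10 counts under anti-Dll4, against 1, 0, 0 and 0 counts under IgG (log2 fold change 4.37, SE 0.78, adjusted p = 0.0845). Frk, a tyrosine kinase of the Src family, had no count under anti-Dll4, against 13, 9, 16 and 10 counts under IgG. In each of the 3 the groups were fully apart, at low counts. Against a floor of 3 counts per library Frk was at least 3.70-fold lower under anti-Dll4 (adjusted p = 0.157).

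Stress and immediate early genes, which respond within minutes to handling and dissociation, had 21 negative and 4 positive values of 25, with a median of -0.22. Dnajb1, a heat shock co-chaperone, had 344, 328, 341 and 341 CPM under anti-Dll4, against 614, 625, 469 and 592 CPM under IgG. The anti-Dll4 libraries were nearly equal and all below the IgG libraries. Its log2 fold change was -0.76 (SE 0.25), with an adjusted p of 1 in edgeR over 24 libraries and of 1.57e-08 in DESeq2 over 8. Atf3, a stress transcription factor, had 8.13, 17.4, 6.06 and 12.1 CPM under anti-Dll4, against 31.4, 30.4, 23.7 and 6.99 CPM under IgG, with IgG replicate 4 inside the anti-Dll4 range. Hspa1a and Hspa1b, near-identical heat shock genes whose reads could be split, had -0.41 and -0.34.

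TGF-beta and BMP signalling genes had 22 negative and 4 positive values of 26, with a median of -0.22. Their summed level was 778, 835, 797 and 673 CPM under anti-Dll4, against 990.2, 942, 943.5 and 939.8 CPM under IgG, with no overlap. This was seen among the sums of 30 lists and was not tested. Of the 26 genes, 1 lay lower in all 4 anti-Dll4 libraries than in all 4 IgG libraries, which 1.15% of all genes did. Tgfb1, a ligand, averaged 289 ± 34.3 CPM under anti-Dll4 and 331 ± 90.7 under IgG (SD, n = 4 each). Id3, an inhibitor of helix-loop-helix factors induced by BMP, had 106, 113, 81.8 and 72.5 CPM under anti-Dll4, against 68.5, 161, 138 and 194 CPM under IgG. The lowest value was IgG replicate 1, and the log2 fold change was -0.59 (SE 0.36). Bmp2, a ligand, had a positive value of 1.75 (SE 0.60).

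Among transcription factors of the blood lineage, 11 had positive and 20 negative values, with a median of -0.09. Runx1, which drives blood formation from endothelium, averaged 143 ± 11.8 CPM under anti-Dll4 and 148 ± 16.6 under IgG (SD, n = 4 each). Gfi1b, a transcriptional repressor found in the erythroid and megakaryocyte lineages, averaged 602 ± 63.9 CPM under anti-Dll4 and 548 ± 88.4 under IgG (SD, n = 4 each). Surface genes of stem cells and progenitors had 2 positive and 13 negative values, with a median of -0.18. Macrophage, granulocyte with mast cell, and lymphoid lists had medians of -0.25, -0.31 and -0.36 over the 20 of 20, 6 of 15 and 3 of 12 members that were tested. The summed macrophage level was 114.7 to 127.2 CPM under anti-Dll4, against 94.7 to 150.6 CPM under IgG, most of it Lyz2, and that of the granulocyte list was 7.9 to 12.2 CPM, against 8.0 to 22.8 CPM. Mpo, the peroxidase of granulocytes, had 0, 0.907, 0.522 and 1.22 CPM under anti-Dll4, against 0.0855, 9.83, 0 and 11.0 CPM under IgG, and 2 IgG libraries held nearly all of it.

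Genes of the general cell machinery had medians close to that of all genes. Cytosolic ribosome genes had 25 positive and 3 negative values with a median of 0.09, nuclear oxidative phosphorylation genes 17 and 3 with 0.07, and mitochondrial genome genes 7 and 0 with 0.13. With the globin level as a covariate over the 8 libraries, these became 3 and 25 with -0.08, 7 and 13 with -0.04, and 6 and 1 with 0.02. S phase and G2/M genes had medians of -0.07 and 0.04, and cholesterol synthesis and glycolysis genes of 0.00 and 0.02. The culture medium held a glucocorticoid, and the glucocorticoid response list had 8 positive and 4 negative values with a median of 0.14. In it Mt2, a metallothionein, had 179.6, 402, 273 and 417 CPM under anti-Dll4, against 107, 138, 232 and 184 CPM under IgG, with overlap through anti-Dll4 replicate 1. The interferon list had a median of 0.06 (-0.04 without anti-Dll4 replicate 1), the NF-kB and TNF list of -0.15, the p53 and apoptosis list of -0.14, and the IL-3 and cytokine list of 0.03. The mesenchyme list and the list of epithelium, liver bud and neural genes had medians of 0.09 and 0.22, and 1 library drove single members. Without anti-Dll4 replicate 1 the medians of the mesenchyme, S phase, glycolysis and cholesterol lists were 0.32, 0.00, -0.04 and 0.04, and those of the macrophage and Notch pathway lists, given above, were -0.07 and -0.07. Lum, a matrix proteoglycan, had 144 CPM in anti-Dll4 replicate 4 and at most 18.4 in any other library.

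The effect of the antibody in these cells was set against its effect in the other sorted populations, by testing the difference of the effects over all 24 libraries. Against Kit+ CD45- cells 0 of 15618 genes passed an adjusted p of 0.05 (596, or 3.82%, at an unadjusted p under 0.05, and 0 in limma-voom), and against Kit+ CD45+ cells 1 did, which is 0.00640% of those tested (499, or 3.20%, at an unadjusted p under 0.05). The 1 call was lost in limma-voom (0 calls, smallest adjusted p = 0.759) and with the set number of the labels as a replicate block (0 calls, smallest adjusted p = 0.928). That gene was Cacna2d3, a calcium channel subunit. It had 3.11, 5.14, 3.55 and 4.56 CPM under anti-Dll4 in Kit- CD41+ CD45- cells, against 1.71, 0.266, 1.30 and 1.11 CPM under IgG. In Kit+ CD45+ cells it had 0 counts in all 4 anti-Dll4 libraries, against 14, 2, 6 and 3 counts under IgG. The difference of effects was 7.18 on the log2 scale (adjusted p = 0.0314), and a fit with such zeros gives no bound on its size. With 1 of the 8 Kit- CD41+ CD45- libraries left out, the adjusted p ran from 0.0180 to 0.0781. It missed the threshold without anti-Dll4 replicate 2, anti-Dll4 replicate 4, IgG replicate 3 or IgG replicate 4.

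Hes1 lay on the same side of 0 in all 3 populations, at -1.31 (SE 0.32) in Kit- CD41+ CD45-, -1.13 (SE 0.30) in Kit+ CD45- and -0.73 (SE 0.29) in Kit+ CD45+ cells. Its level was lowest in the first, where it averaged 7.22 ± 1.51 CPM under anti-Dll4, against 29.2 ± 2.65 in Kit+ CD45- and 49.1 ± 5.13 in Kit+ CD45+ cells (SD, n = 4 each). The median of the erythroid list was 0.69 in Kit- CD41+ CD45-, 0.46 in Kit+ CD45- and 0.18 in Kit+ CD45+ cells, where 19 of its genes were positive and 8 negative. That of the pan-endothelium list was -0.52 in Kit- CD41+ CD45-, -0.82 in Kit+ CD45- and -0.10 in Kit+ CD45+ cells, where 10 were positive and 22 negative. These medians were not tested against each other. The platelet list had medians of -0.08 in Kit- CD41+ CD45-, -0.94 in Kit+ CD45- and 0.85 in Kit+ CD45+ cells, and none of its members passed the test of a difference of effects. Gsn, which encodes the actin-severing protein gelsolin, differed by -0.29 in Kit- CD41+ CD45- and by -2.50 in Kit+ CD45- cells, and the difference of 2.21 (SE 0.55) had an adjusted p of 0.930.

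**Figure D5:**
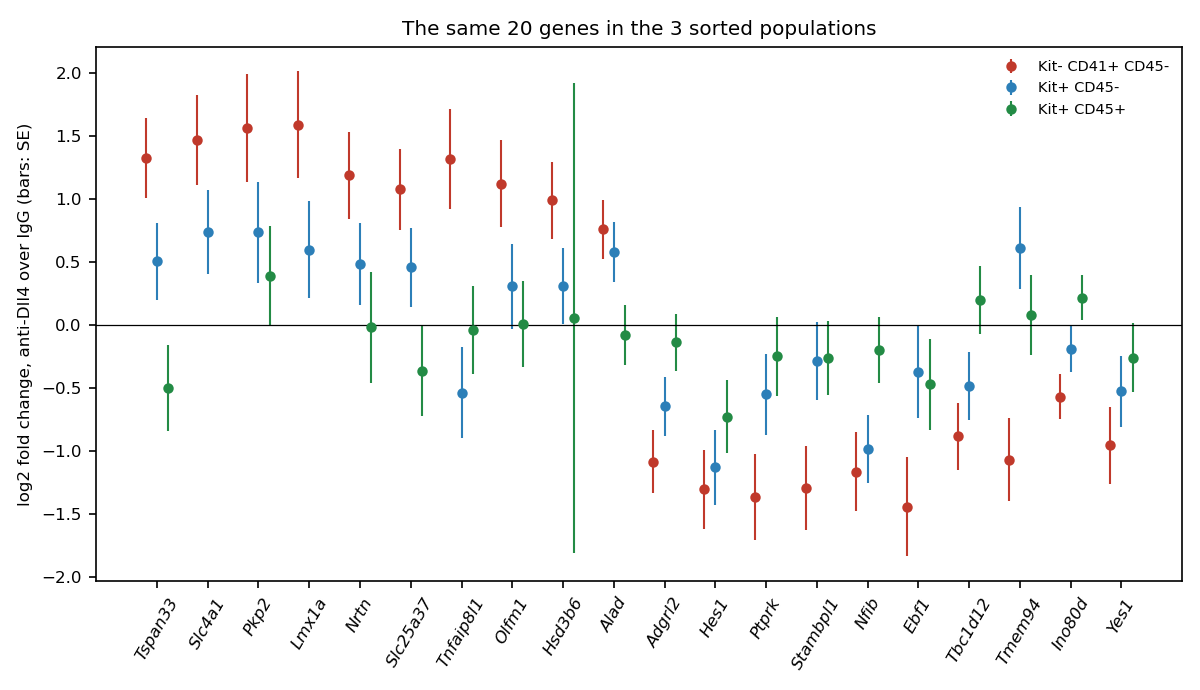
Log2 fold change, anti-Dll4 over IgG, with its SE, of the 20 genes chosen in Kit- CD41+ CD45- cells (red) beside the same genes in Kit+ CD45- (blue) and Kit+ CD45+ cells (green); Slc4a1 and Lmx1a are not drawn in Kit+ CD45+ cells, where no library had a count. Hes1 is below 0 in all 3 populations, and the red points lie far from 0 because the genes were chosen on them.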

How the data were processed

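RNA-seq was measured in 24 libraries of 6 groups, and the 8 of Kit- CD41+ CD45- cells are described here. The count table holds raw reads per gene as the authors deposited it. The tools named, per the submitters' processing notes, are STAR, HTSeq, DESeq2, FastQC and CASAVA 1.4, with build mm10; the role of each tool is not given in the sources used. The authors' deposited log2 table gave gene names and mm10 positions only, and 1 of its columns matches no sample listed here and stayed unused. Counts were fitted in edgeR 4.0.16 (R 4.3.3) with TMM scaling, the filterByExpr filter by group and the robust quasi-likelihood test. The model had a coefficient for each group, 24 libraries, 18 residual degrees of freedom and Benjamini-Hochberg adjustment over 15618 genes. CPM are TMM-scaled. SE were derived from the F statistic and fold change, and intervals are 95%. Both carry the spread within groups of all 24 libraries, the other populations included. Amplified reads carry no molecular identifiers, so floors (3 counts per library) cover counting error only. DESeq2 1.42.0 and limma 3.58.1 (voom) were alternatives, as were other scalings and filters, leaving out each library, the replicate number as a block and the globin level as a covariate. The scripts were tested on simulated counts. Named genes were, for each direction, the 10 of smallest p at 5 CPM or more in whichever group was higher. The globin share was compared by an exact permutation test over 70 arrangements. The comparison and the 31 gene lists, with 599 genes, were chosen with earlier results of these data known. Promoters are RefSeq's, GRCm38.p6.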

Additional observations from a re-analysis of the deposited data

Results flagged for a closer look

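In groups of 4 libraries, 10 of 156 tested had a library far from the other 3; chance flags about 1 in 20. Anti-Dll4 replicate 1 had 1 Xist count, against 1528 to 1559 in the other 3, and 2590 counts of Y-linked genes, against 0. It also held the only Enpp2 counts of its group (0.301 CPM, 0 in the others). Anti-Dll4 replicate 4 held the only Ptprc counts (0.890 CPM) and the highest summed level of mesenchyme genes (354.5 CPM, against 96.7 to 126.8). IgG replicate 2 had the highest Dll4 level (0.708 CPM, against 0 to 0.1), IgG replicate 1 the only Flt4 count (0.086 CPM) and the highest sum of TGF-beta and BMP genes (990.2 CPM, against 939.8 to 943.5). IgG replicate 3 had 11.2 CPM of Ebf1, against 2.82 to 3.81, and IgG replicate 4 had 96.2 CPM of Hsd3b6, against 38.3 to 43.1. The effect of anti-Dll4 on Cacna2d3 differed from that in Kit+ CD45+ cells by 7.18 on the log2 scale, by the test of the difference itself. That call was lost in limma-voom and with the set number as a block. Its size rests on Kit+ CD45+ libraries with 0 counts under anti-Dll4.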

How the results depend on the processing

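The count of genes past the threshold was 0 under other scalings, a stricter filter, the replicate block, the globin covariate and limma-voom. It was 1 with no filter (Enpp2), 2 at an adjusted p of 0.1 and 11 in DESeq2 over 8 libraries, 10 higher and 1 lower: Tspan33, Slc4a1, Cpox, Uros, Rhd, Slc25a37, Ermap, Hbb-bs, Slc43a3 and Dapk2 higher, Dnajb1 lower. Leaving out 1 library gave 0 to 1: Tanc1 without anti-Dll4 replicate 2, Flt4 without anti-Dll4 replicate 3, Hes1 without IgG replicate 1 and Enpp2 without IgG replicate 4. The difference of effects from Kit+ CD45- cells gave 0 to 1 (Flt4, without anti-Dll4 replicate 3). That from Kit+ CD45+ cells gave 0 to 2 on leaving out a library, 0 in limma-voom and 0 with the set number as a block. The cause was not tested. The globin difference was 4.29 to 6.23 percentage points on leaving out a library, against 5.10, with exact p of 0.0571 to 0.114. Same-numbered libraries did not deviate together (r from -0.05 to 0.04), and 2 of 4 anti-Dll4 libraries correlated best with their own number. The replicate block gave 0 calls and 4 genes at an adjusted p of 0.1. For the globin difference it gave an exact p of 0.125, the smallest that its 16 sign flips can give. The globin covariate turned the sign of the platelet median (0.08, against -0.08) and of several others. Among them were the cytosolic ribosome median (-0.08, against 0.09) and the S phase median (0.13, against -0.07). The mesenchyme median over the 14 genes tested in the 8-library fits was -0.98 with it, against 0.09 without. Covariate and block together turned that of the pan-endothelium median over the 21 genes tested in these fits (0.08, against -0.27 with the block alone). Over 41 named genes and all alternatives, 791 of 802 values kept the sign of the reported one. At these library totals, genes under 1 CPM are measured with a median SE of 1.00 on the log2 scale.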
